A study of Homo sapiens with 3 samples.

Results

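Of the genes that aberrant somatic hypermutation is known to strike in B-cell lymphoma, 8 were examined in SC1 cells: BTG1, BTG2, PIM1, DTX1, SOCS1, RHOH, SGK1 and BCL7A. The locus of each gene was its body on build hg19 with 20 kb added on either side, and every deposited interval that touched a locus was taken. This gave 75 of 215598 CREBBP peaks and 20 of 18263 H3K27ac regions. SC1 is a human lymphoma cell line, grown in RPMI1640 medium with serum and labelled as diffuse large B-cell lymphoma (DLBCL). Its chromatin was immunoprecipitated for CREBBP, an acetyltransferase of histones and other proteins, or for acetylated lysine 27 of histone H3 (H3K27ac), which is found at promoters and enhancers in use. An input with no antibody was also made. Each of the 3 groups held 1 sample, so no value below has a replicate error and no difference between cultures could be tested. The input was not analysed here. The lists hold no expression and no mutation calls, so neither the cell type nor mutation of these genes in SC1 could be checked.

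In germinal-centre B cells the enzyme AID deaminates cytosines in the variable regions of antibody genes, and its preferred sites include the word AGCT. In many lymphomas the same kind of mutation appears in other genes, mostly in the stretch that follows their transcription start, and such genes tend to be highly transcribed and to carry active chromatin in germinal-centre B cells. CREBBP, itself often mutated in DLBCL, does not bind a DNA motif itself and is brought to promoters and enhancers by transcription factors. The 8 genes have separate roles. BTG1 and BTG2 are related antiproliferative proteins that promote mRNA deadenylation, PIM1 and SGK1 are serine/threonine kinases, and SOCS1 inhibits JAK-STAT signalling. DTX1 is a ubiquitin ligase tied to Notch signalling, RHOH is a signalling protein of blood cells, and BCL7A is a subunit of SWI/SNF chromatin remodelling complexes.

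The promoter sequences of 4 members with H3K27ac over the 5′ end and of SGK1, which had none, are shown because the 5′ ends of these genes differed in the data. BTG1 and PIM1 had H3K27ac and a CREBBP peak there, BTG2 and SOCS1 had H3K27ac alone, and SGK1 had neither. For SGK1 this refers to the 5′ end of the gene body used here, and the sequence printed is that of another start. Each runs 5′ to 3′ on the gene's own strand, from 250 bases before to 50 bases after a transcription start listed by RefSeq on build GRCh38.p14, and capitals mark AGCT. The windows lie at chr12:92145797-92146096 on the minus strand for BTG1, chr1:203305269-203305568 on the plus strand for BTG2, chr6:37169902-37170201 on the plus strand for PIM1 and chr16:11256155-11256454 on the minus strand for SOCS1. The SGK1 window is that of the innermost of its 3 listed starts, chr6:134174817-134175116 on the minus strand. By distance along the gene, the SGK1 CREBBP peak with most fragments, 143044 to 143407 bases inside, lies over that start.
BTG1: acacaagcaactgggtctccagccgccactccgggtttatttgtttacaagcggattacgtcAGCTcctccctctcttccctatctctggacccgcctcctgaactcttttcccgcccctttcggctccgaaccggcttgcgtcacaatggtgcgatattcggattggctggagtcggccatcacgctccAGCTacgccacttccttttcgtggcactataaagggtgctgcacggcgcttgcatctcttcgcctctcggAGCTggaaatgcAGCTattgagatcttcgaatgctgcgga
BTG2: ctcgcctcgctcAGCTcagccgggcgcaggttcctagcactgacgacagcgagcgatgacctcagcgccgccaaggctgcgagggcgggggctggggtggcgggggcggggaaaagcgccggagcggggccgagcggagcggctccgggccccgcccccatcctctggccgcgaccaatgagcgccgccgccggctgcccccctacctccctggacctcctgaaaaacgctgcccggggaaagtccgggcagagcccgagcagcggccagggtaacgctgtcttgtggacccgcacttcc
PIM1: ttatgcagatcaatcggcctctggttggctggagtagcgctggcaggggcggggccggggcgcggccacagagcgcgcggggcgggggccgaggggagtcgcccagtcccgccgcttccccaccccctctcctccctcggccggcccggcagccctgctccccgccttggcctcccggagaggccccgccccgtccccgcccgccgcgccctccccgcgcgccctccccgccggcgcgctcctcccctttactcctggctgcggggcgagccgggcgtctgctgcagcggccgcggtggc
SOCS1: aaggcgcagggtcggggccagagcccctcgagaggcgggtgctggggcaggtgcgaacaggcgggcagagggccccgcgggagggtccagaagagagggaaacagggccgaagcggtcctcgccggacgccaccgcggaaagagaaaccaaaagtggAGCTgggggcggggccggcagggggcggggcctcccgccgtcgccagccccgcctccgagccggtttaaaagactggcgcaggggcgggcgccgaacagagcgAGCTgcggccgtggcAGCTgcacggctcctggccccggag
SGK1: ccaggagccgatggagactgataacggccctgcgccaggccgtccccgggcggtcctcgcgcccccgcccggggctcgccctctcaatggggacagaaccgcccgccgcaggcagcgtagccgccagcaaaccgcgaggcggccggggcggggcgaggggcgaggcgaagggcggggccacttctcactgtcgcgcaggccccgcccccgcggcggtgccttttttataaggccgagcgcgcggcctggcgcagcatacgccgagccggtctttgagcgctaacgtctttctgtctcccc

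The BTG1 window held 4 copies of AGCT, a number reached by 6.12% of the 35116 RefSeq promoter windows, and the SOCS1 window held 3, reached by 17.4%. The BTG2 window held 1 copy, the PIM1 window and this SGK1 window held none, and the outermost and middle SGK1 starts had 1 and 2. AGCT is its own reverse complement, so a match counts for both strands, and 74.1% of all windows held at least 1. RefSeq windows were found for 7 of the 8 genes, 12 windows in all, and DTX1 was not matched. Of the 12, 8 held AGCT, but RHOH and SGK1 gave several windows each, so the 12 are not separate genes. PIM1 was the only matched gene with no AGCT in any of its windows. AGCT belongs to a wider class of AID sites of 4 bases, read on either strand, in which A or T is followed by A or G, then by C, then by C or T. The 12 windows held 9 to 19 such sites, against a median of 17 over all windows. Each window lies mostly before its transcription start. The counts of AGCT and of the wider class therefore say little about the stretch after the start, where aberrant hypermutation mostly falls. The windows of PIM1, BCL7A, SOCS1, BTG2 and the innermost SGK1 start were 73.3% to 80.3% G and C, while BTG1 had 56.0%. Those of RHOH had 44.3% to 52.0%, and those of the outermost and middle SGK1 starts 38.0% and 43.0%. The median over all windows was 58.7%. A search added after the data were seen, for CGTCA on either strand, which is the core of the site of CREB, the factor CREBBP is named for, found 2 copies in the BTG1 window, 1 in the BTG2 window and none in the other 10. Of all windows, 24.6% held it. The peaks are on hg19 and were not placed on these sequences.

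H3K27ac was present at 7 of the 8 loci and absent from SGK1. The 20 regions covered 140.9 of the 616.9 kb examined, 22.8%, against 1.12% of the extent of all chromosomes. The fixed 40 kb tiles of chromosomes 1 to 22 and X that met an H3K27ac region were 17.1% of 75872. The tiles include stretches without genes, so they are a background for the genome and not for genes. Cover differed widely between members, from 70.1% of the BTG2 locus and 52.7% of DTX1 to 35.0% of BCL7A, 24.9% of RHOH, 18.7% of PIM1, 12.7% of BTG1, 5.44% of SOCS1 and 0 at SGK1. Among tiles of the same length as the BTG2 locus, 6 of 68870 had as much cover, and among tiles of the length of the DTX1 locus, 6 of 37462 did. For SOCS1 this share was 6.36%. No H3K27ac at all, as at SGK1, was the state of 59.2% of tiles of its length. Longer tiles meet a region more often. The share without any was 82.3% for tiles of the SOCS1 length and 81.3% to 81.8% for BTG1, BTG2 and PIM1. For DTX1, BCL7A and RHOH it was 72.2% to 73.4%.

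**Figure D1:**
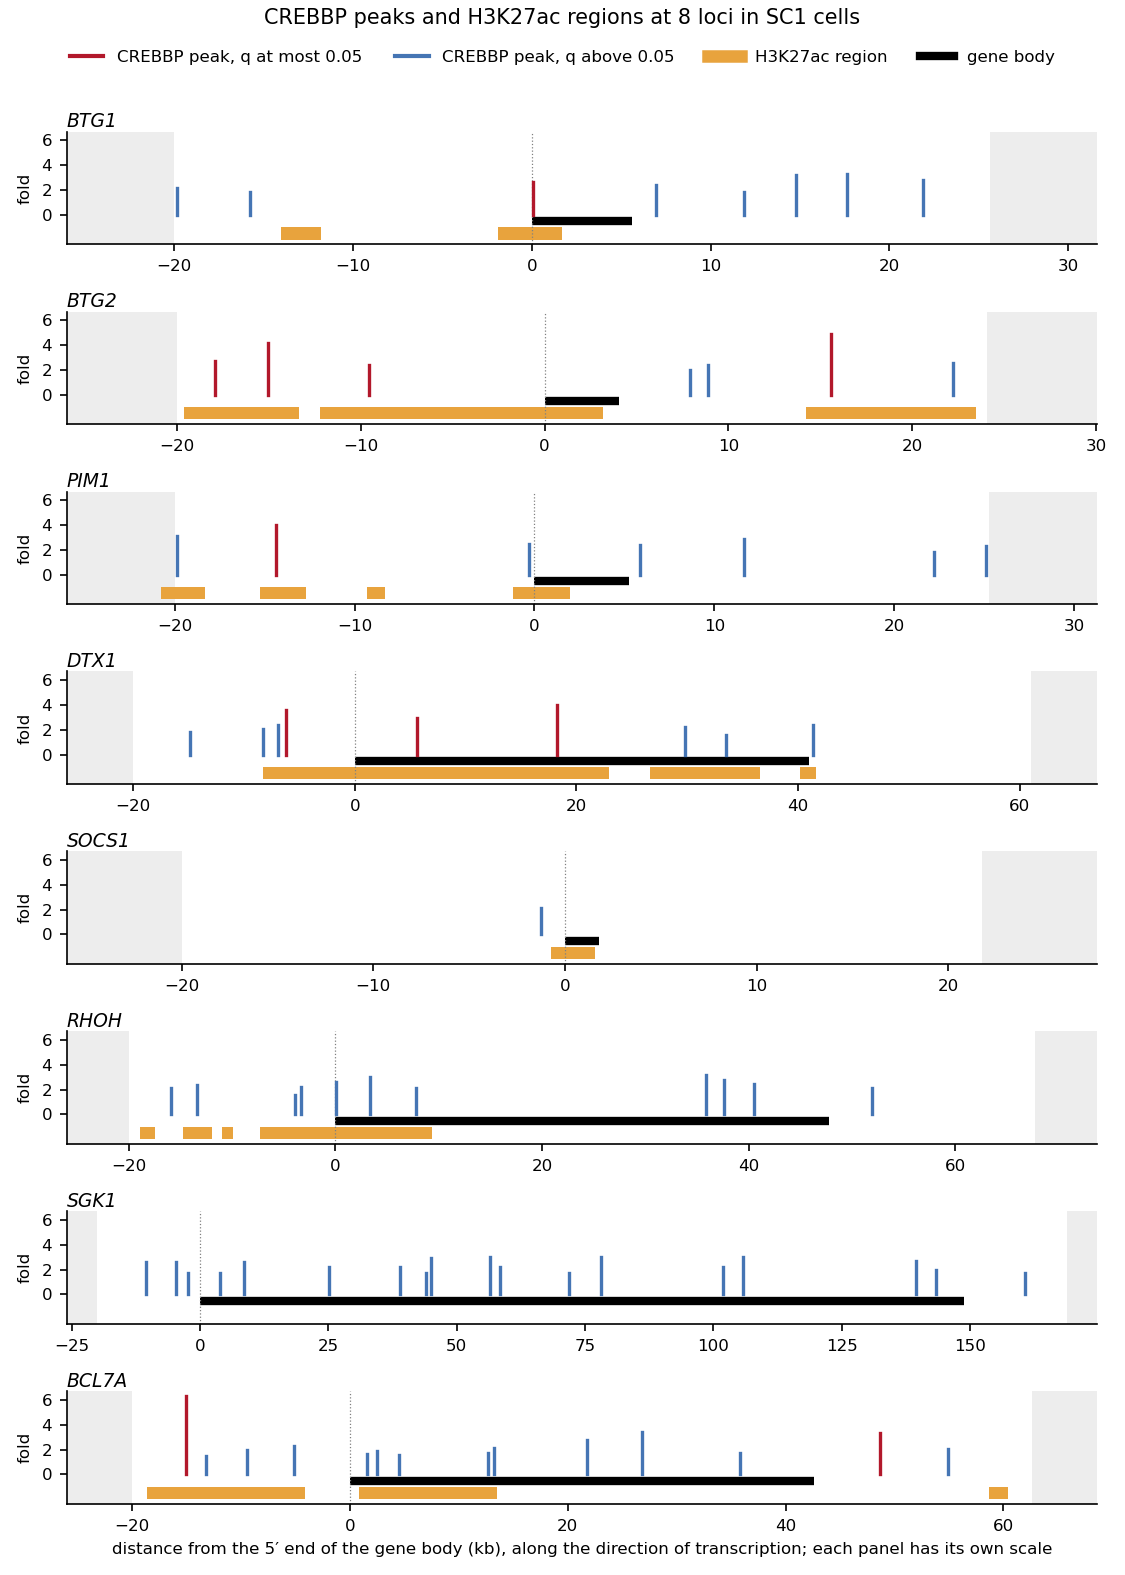
CREBBP peaks (vertical lines at the summit, height by fold enrichment, in dark red for q of at most 0.05 and blue otherwise), H3K27ac regions (orange) and gene body (black) at each locus against the distance in kb from the 5′ end, drawn in the direction of transcription. Grey bands lie beyond the 20 kb flank. The dark red lines sit above orange bars except for 1 at BCL7A, and SGK1 has blue lines only.

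An H3K27ac region lay over the 5′ end of the gene body at 6 of the 8 loci, and at BCL7A it began 844 bases further in. Without an hg19 annotation the share of all genes with H3K27ac over the 5′ end is unknown here. The count therefore cannot be read as a trait of these genes. The 6 regions were 2273 to 31220 bp wide, with fold enrichment from 4.45 to 18.8. Fold is the authors' ratio of ChIP signal to expected background, which in the H3K27ac list is a mean over the region. In width, the 20 regions had a median of 3005 bp, and the 18243 regions elsewhere had one of 1422 bp. Of the 20, 8 were at least 5 kb wide, a width reached by 4.89% of the list. Their median fold was 6.04 (5.12 to 8.19), against 4.91 (3.11 to 7.94) for the others. The regions thus stood further from the rest of the list in width than in fold, and no test was made, since the genes were chosen with results of these data known. A wider region is more likely to touch a locus and so to be a member. The part of this in the width difference was not tested.

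**Figure D2:**
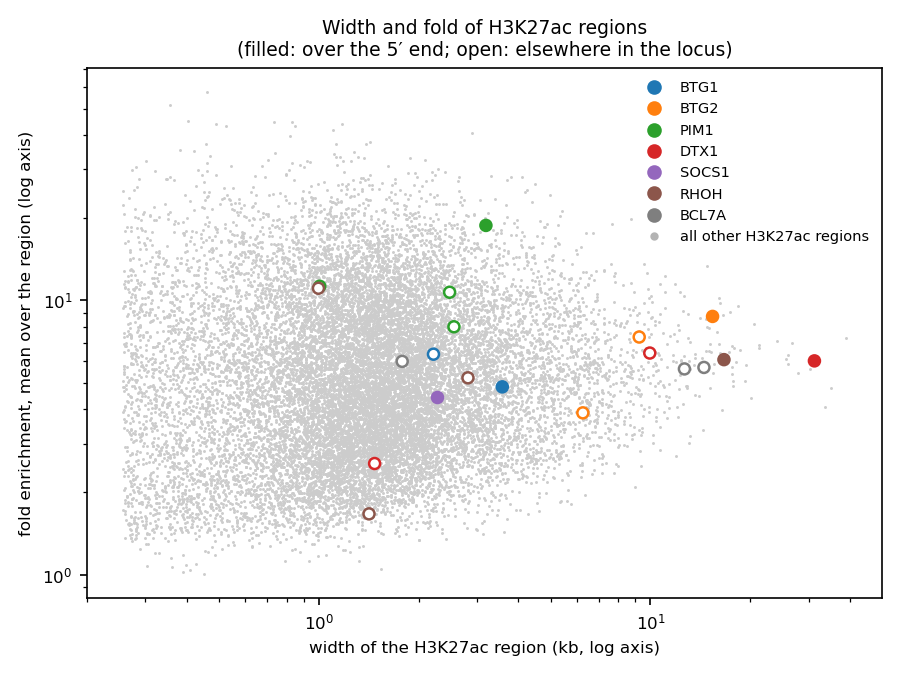
Width in kb and mean fold enrichment of the 20 H3K27ac regions at the loci (coloured by gene, filled where the region lies over the 5′ end) and of the 18243 other regions (grey), on log axes. DTX1, RHOH and BTG2 have filled points beyond 15 kb, and PIM1 has the highest fold, 18.8, at 3.19 kb.

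CREBBP peaks numbered 1 to 18 per locus, and 32 of the 75 shared at least 1 bp with an H3K27ac region, 42.7% (exact Clopper-Pearson 95% interval 31.3 to 54.6%), where the whole list had 5.06%. These intervals cover counting error only and treat peaks of the same locus as independent. The number inside differed between loci, from 0 of 18 at SGK1 to 8 of 9 at DTX1. H3K27ac covered 22.8% of the locus length and 1.12% of the extent of all chromosomes. More cover takes in more peaks, and the part of cover in the share inside was not tested. Of the 75, 11 had q at or below 0.05, 14.7% (7.56 to 24.7%), where the whole list had 1.81%. These 11 are called the stronger peaks. Of them, 10 lay inside H3K27ac and belonged to BTG1, BTG2, PIM1, DTX1 and BCL7A. The whole list had 3901 peaks of that strength, and 2090 of the 18263 regions held at least 1. The share of those 3901 peaks inside H3K27ac was not counted, so the 10 of 11 have no background. By locus, 5 of 8 held such a peak inside a region. Among the 40 kb tiles of the genome, 2.63% did. The loci were 41.8 to 188.8 kb long, and longer windows meet more peaks. Among tiles of each locus's own length the share was 2.74% for SOCS1, the shortest, 2.89% to 2.95% for BTG1, BTG2 and PIM1, 4.99% to 5.36% for DTX1, BCL7A and RHOH, and 10.47% for SGK1. RHOH, SOCS1 and SGK1 had no peak of that strength. The threshold cut through a small group, since 3 further peaks had q between 0.05 and 0.06, at PIM1 (0.0505), RHOH (0.0538) and BTG2 (0.0561). Seen from the mark, 14 of the 20 regions held a CREBBP peak, where 49.0% of all regions did, and 7 held one with q of at most 0.05, where 11.4% of all regions did. Wider regions meet more peaks by their length alone, and the part of width in these counts was not tested.

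**Figure D3:**
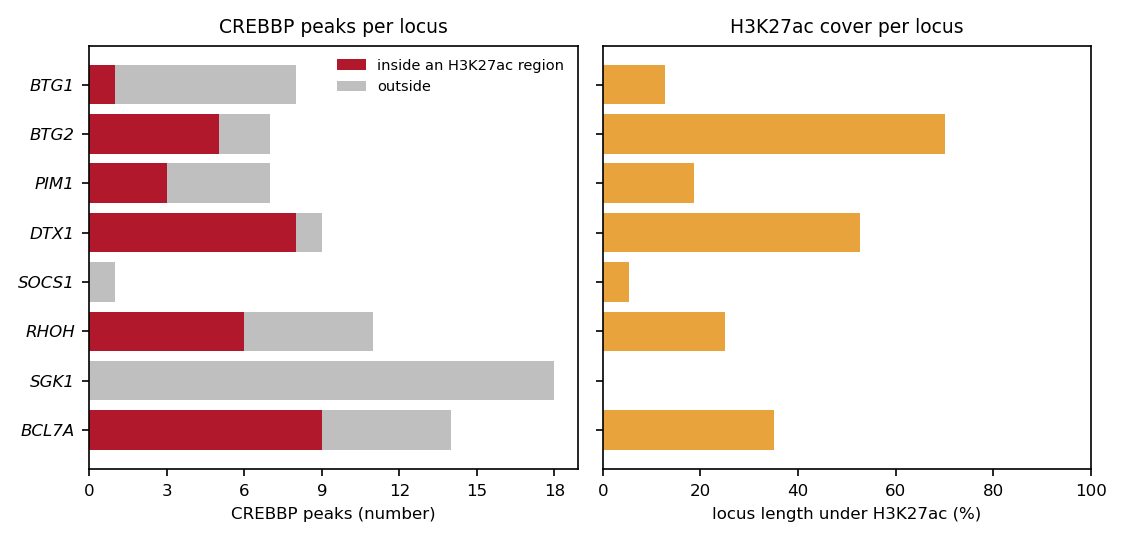
Number of CREBBP peaks per locus, inside (dark red) and outside (grey) H3K27ac regions, and percent of the locus length under H3K27ac. SGK1 has the most peaks, 18, all outside, and no cover, while 8 of 9 peaks at DTX1 and 5 of 7 at BTG2 lie inside.

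BTG1 lies on chromosome 12 from 92534054 to 92539673, on the minus strand. Its promoter was covered by a very wide CREBBP peak. The peak spanned 2584 bp, from 682 bases before to 1901 bases after the 5′ end, and only 9 peaks of the 215598 were wider. Its summit lay 90 bases inside the gene, with a fold of 2.66 and q of 0.0254, so it was broad rather than high. It shared 2351 bp with an H3K27ac region of 3576 bp and fold 4.83, which ran from 1907 bases before to 1668 bases after the 5′ end. A second region of 2218 bp with a fold of 6.36 lay 11.8 to 14.0 kb upstream and held no CREBBP peak. The other 7 CREBBP peaks of the locus were outside H3K27ac, with folds from 1.86 to 3.31 and q of 0.258 or more. The peak of largest fold among them, 3.31, had 7 fragments and lay 17.6 kb downstream of the 5′ end. RefSeq lists the divergent transcript BTG1-DT and LINC01619 as neighbours, so the upstream region cannot be given to BTG1 alone.

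BTG2, on chromosome 1 from 203274664 to 203278729 on the plus strand, had the densest H3K27ac of the set and no CREBBP peak at its 5′ end. A region of 15.4 kb and fold 8.73 ran from 12.2 kb upstream to 3.15 kb inside the gene, and only 39 regions in the list were wider. It was flanked by a region of 6256 bp and fold 3.89 upstream and one of 9251 bp and fold 7.35 downstream. Of its 4 stronger CREBBP peaks, 3 stood in these flanking regions. The peak 15.0 kb upstream had a fold of 4.17 and q of 1.54e-16, and the peak 15.6 kb downstream of the 5′ end had a fold of 4.93 and q of 6.20e-18. A peak 17.9 kb upstream had a fold of 2.75 and q of 9.12e-06. The wide central region held a single peak, 9.56 kb upstream, with a fold of 2.42 and q of 0.00485. None of the 4 lay within 9 kb of the gene's start. LINC01353, BTG2-DT and RNU6-487P are listed by RefSeq within 20 kb of BTG2.

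PIM1, on chromosome 6 from 37137922 to 37143204 on the plus strand, carried the highest H3K27ac fold of the 20 regions. The region over its 5′ end was 3192 bp wide, from 1193 bases before to 1998 bases after, with a fold of 18.8 that 2.32% of the list reached. The CREBBP peak inside it was 1020 bp wide with its summit 303 bases upstream, a fold of 2.45 and q of 0.0505, just above the threshold. At that summit 25 fragments stood over a background of 9.62, as solved from the deposited values. The same number of fragments over a background of 5.54 gave a higher fold, 3.97, and q of 5.89e-06 at a peak 14.4 kb upstream, in a region of 2557 bp and fold 8.01. Of the remaining H3K27ac regions, 1007 bp wide with fold 11.2 and 2481 bp wide with fold 10.7, the wider held a CREBBP peak with q of 0.108. PIM1 had no other RefSeq gene within 20 kb.

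SOCS1, on chromosome 16 from 11348274 to 11350039 on the minus strand, had a compact pattern. A single H3K27ac region of 2273 bp and fold 4.45 covered 87.8% of the gene body and its 5′ end. The only CREBBP peak of the locus lay outside that region, 197 bases beyond its upstream edge and with its summit 1256 bases before the 5′ end. This peak had 12 fragments over a background of 5.02, a fold of 2.16 and q of 1. The list holds peaks with any q. At the 8 loci 39 of the 75 had q of 1, 52.0%, where 80.7% of the whole list did. The density of CREBBP peaks, 0.239 per 10 kb, was the lowest of the 8 loci, where the whole list had 0.710 per 10 kb. The flank, in which RefSeq on GRCh38.p14 lists TNP2, PRM2 and PRM3, genes of sperm chromatin, had no other H3K27ac region.

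DTX1, on chromosome 12 from 113495000 to 113536000 on the plus strand, had the widest region of the set and the fourth widest of the list. It was 31.2 kb long with a fold of 6.01, from 8.31 kb upstream to 22.9 kb inside the gene, and a region of 9956 bp and fold 6.42 followed in the 3′ part of the gene. Together with a region of 1474 bp at the 3′ end they covered 82.2% of the gene body. The stronger CREBBP peaks were spread through the widest region. Their summits lay 6178 bases upstream, 5594 bases inside and 18228 bases inside the gene, with folds of 3.56, 2.92 and 4.02 and q of 0.00122, 0.00859 and 1.74e-09. None lay within 5 kb of the 5′ end. The ends of the DTX1 body used here are rounded, and the RefSeq gene on GRCh38.p14 is 295 bases longer, so these distances are approximate. RASAL1, listed by RefSeq beside DTX1, lies on the side of the 3′ region, which cannot be given to either gene.

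RHOH, on chromosome 4 from 40198527 to 40246281 on the plus strand, had wide H3K27ac with weak CREBBP peaks. The region over its 5′ end was 16.7 kb wide with a fold of 6.08 and held 5 CREBBP peaks. The peak nearest to the 5′ end began 14 bases inside the gene, with its summit at 109 bases, a fold of 2.60 and q of 0.207. The strongest by q, 3411 bases inside, had a fold of 3.03 and q of 0.0538. The peak with most fragments, 17 over a background of 7.10, had its summit 3323 bases upstream of the 5′ end, also in this region, with a fold of 2.22 and q of 0.614. The largest fold at RHOH, 3.22, belonged to a peak 35.8 kb inside the gene and outside H3K27ac, with 9 fragments and q of 0.207. Upstream, a narrow region of 998 bp had a fold of 11.1 and no CREBBP peak, between a region of 2818 bp and fold 5.22 and the wide one. A region of 1418 bp at the edge of the locus, with a fold of 1.66, was among the weakest of the list, where 97.6% had at least that fold. The RefSeq gene is 8133 bases longer than the body used here and has 4 listed starts, so the 5′ end of RHOH depends on the annotation.

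SGK1, on chromosome 6 from 134490384 to 134639196 on the minus strand, was the exception. No H3K27ac region lay in its 188.8 kb locus, and the nearest was 215 kb from the gene body. It held 18 CREBBP peaks, 0.953 per 10 kb, all with q of 0.614 or more. Their folds ran from 1.74 to 3.04, a range that overlaps the folds at the other loci, but they rested on 3 to 10 fragments with a median of 4.5. Their median background was 1.30, the commonest value of the whole list. The largest fold, 3.04, was shared by peaks 105.8, 78.2 and 56.5 kb inside the gene, each with 6 fragments and q of 0.614. The peak with most fragments, 10 over a background of 4.62, had its summit 143309 bases inside the gene, a fold of 1.96 and q of 1. RefSeq lists 3 starts for SGK1 on GRCh38.p14, and the innermost lies 143246 bases inside the outermost. The distances come from separate builds, whose SGK1 bodies differ by 44 bases, so the match is a description along the gene and not a shared coordinate. The sequence of that start, printed above, was 73.3% G and C, and that of the outermost start 38.0%.

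BCL7A, on chromosome 12 from 122457328 to 122499950 on the plus strand, held the CREBBP peak with the largest fold of the 75. It lay 15.0 kb upstream, with a fold of 6.34 that 0.0227% of the list reached, 62 fragments over a background of 8.94 and q of 6.15e-27. The H3K27ac region around it was 14.5 kb wide with a fold of 5.69 and held 3 further peaks with q of 0.614 or more. A region of 12.7 kb and fold 5.62 began 844 bases inside the gene and held 5 peaks, all with q of 1 and folds of 1.52 to 2.12. The 5′ end itself lay in the gap between these regions. The RefSeq gene on GRCh38.p14 is 2462 bases shorter than the body used here, and which end of the gene differs was not determined. A region of 1785 bp and fold 5.99, 58.7 kb from the 5′ end, held no CREBBP peak. A peak of fold 3.31 and q of 0.00387, 48.6 kb from the 5′ end, was the only peak of that strength outside H3K27ac at the 8 loci, 9813 bases from the nearest region. RefSeq places CFAP251, MLXIP and the noncoding LOC124903038 and LINC02985 within 20 kb of BCL7A, so the flanking regions cannot be given to BCL7A alone.

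By distance from the start, the stronger CREBBP peaks lay about as the length of the loci does. Of the 11, 10 had summits more than 5 kb from the 5′ end, 90.9%, as did 82.7% of the 75 peaks, and 87.0% of the locus length lies that far away. BTG1 had the only stronger peak nearer. A CREBBP peak of any strength covered the 5′ end of the gene body used here at 2 loci, BTG1 and PIM1. With the BCL7A end moved inwards by 2462 bases, a peak 2333 to 2892 bases inside the gene, of fold 1.86, would cover it. By distance along the gene, an SGK1 peak 143044 to 143407 bases inside lies over the innermost RefSeq start. The counts by distance were not repeated with such ends. With the gene bodies used here, 5 of the 75 peaks, 6.67%, had summits within 2 kb of a 5′ end. They were at BTG1, PIM1, SOCS1, RHOH and BCL7A, and 5.19% of the locus length lies that near.

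The number of fragments separated peaks inside and outside H3K27ac more than fold did. The 32 peaks inside had a median fold of 2.39 (interquartile range 1.998 to 2.95), and the 43 outside had 2.29 (1.97 to 2.82). The median number of fragments at the summit was 17 (15 to 24.25) inside and 6 (5 to 8) outside, and the median background was 8.17 (5.54 to 9.33) inside and 1.85 (1.30 to 2.77) outside. In the rest of the list the peaks inside had 16 fragments over a background of 6.87, and those outside had 5 over 1.30. In each setting the median number of fragments at the loci was within 1 of that elsewhere. The 11 stronger peaks had a median of 35 fragments, over a background of 8.71, where the 3872 other solved peaks of that strength had 19 over 4.62. A peak on a higher background needs more fragments to reach the same q, and the part of this in the difference was not tested.

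**Figure D4:**
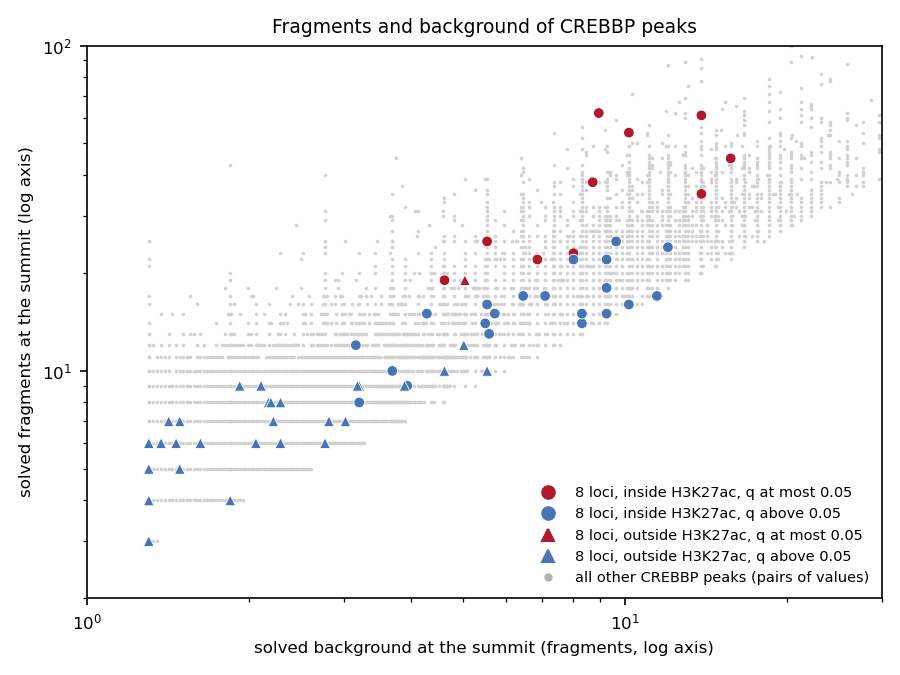
Fragments against background at the summit of the 75 CREBBP peaks, both solved from the deposited fold and p, on log axes. Circles lie inside H3K27ac and triangles outside, dark red marks q of at most 0.05, and grey points are the values of other peaks in the list, of which 222 lie beyond the axes. Triangles gather at 3 to 10 fragments and dark red points at 19 to 62.

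The 20 kb flank set which intervals were members. The member CREBBP peak farthest from a gene body, 19754 bases from PIM1, had a fold of 3.12, and the nearest peak left out, 20996 bases from BTG1, had a fold of 2.95. The farthest H3K27ac region kept, 18290 bases from PIM1, was 2481 bp wide with a fold of 10.7. The nearest left out, 20668 bases from BTG2, was 12148 bp wide with a fold of 8.15.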

How the data were processed

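ChIP-seq of SC1 cells was deposited as a narrow CREBBP peak list and a broad H3K27ac region list. The submitters' processing notes name hg19, MACS2, STAR, Bowtie2 and fastp. What each did, with which version, settings, control or pooling, is not given in the sources used here. The words DMSO and rep2 in peak names have no explanation in the labels. The deposited columns are the authors' fold (a ratio), −log10 p, −log10 q and a score, used only within a list. Sequencing depth is unknown from the lists.

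Positions count from 1 on hg19, chromosomes 1 to 22 and X. Gene bodies came with the choice of members, strands were entered by hand and matched the RefSeq promoter table for the 7 genes in it. No hg19 annotation was at hand, so exon and intron were not assigned, and the marker genes and further hypermutation targets foreseen were not looked up. RefSeq tables (GRCh38.p14) gave promoter sequences, gene lengths and neighbours. Fragments n and background b were solved from fold = (n + 1)/(b + 1) and a Poisson upper tail, within 0.001 of −log10 p, for 99.99% of the list. This is an inference from the deposited values. Overlap meant at least 1 bp.

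The members, lists and alternatives were chosen with earlier results of these data known, so nothing was tested. In each locus the text names the widest H3K27ac region, any over the 5′ end, the CREBBP peaks of largest fold and most fragments and each with q of at most 0.05. Further peaks were chosen after their values were seen. Python 3.11.15, numpy 2.4.6, pandas 2.3.3, scipy 1.17.1 and matplotlib 3.10.9 were used, and the overlap and fragment code was tested on simulated data.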

Additional observations from a re-analysis of the deposited data

How the results depend on the processing

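Of 31 alternative values, 24 stayed within 1.5 times the reported value (for the share inside H3K27ac, within its interval) and 7 did not. With a flank of 5 kb the loci held 10 H3K27ac regions, 46 CREBBP peaks and 3 peaks with q of at most 0.05, and 2 loci had such a peak inside a region, as a shorter flank takes in less. With a flank of 50 kb they held 34 H3K27ac regions. The share of CREBBP peaks inside H3K27ac was 90.9% for peaks with q of at most 0.05, and 56.1% without the SGK1 locus, an alternative added after the data were seen. For peaks of that q in the whole list the share inside was not counted. An H3K27ac region met 7 of 8 5′ ends within 2 kb, or with the BCL7A end moved inwards by 2462 bases, as if its whole difference from RefSeq lay there, also added later, and 5 with the upper 50% of regions by q. No paired analysis was possible because there was 1 sample a group. Depth is unknown, most peaks rest on few fragments, and no input values were used.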

Other observations

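Between 20 and 50 kb from the gene bodies lay a further 14 H3K27ac regions and 28 CREBBP peaks, of which 1 reached q of at most 0.05. At BTG2 the next region upstream was 12.1 kb wide with a fold of 8.15, and the 3 CREBBP peaks in it had q of 0.207, 0.515 and 1. At BCL7A a region of 8518 bp and fold 5.31, 32.1 kb from the gene body, held the peak with q of 6.32e-06, which had 28 fragments and a fold of 3.68. PIM1 had 4 further H3K27ac regions and 2 CREBBP peaks in this outer flank. SGK1 had no H3K27ac region there and 2 CREBBP peaks.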
